A study of Mus musculus with 6 samples.

Results

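The genes described here are interferon-induced genes, a set of 35 mouse genes listed by symbol, of which 33 had a probe set that carries a single gene symbol, out of 18194 genes so measured in the series. Where a gene had several probe sets, the brightest on average was used. Isg15, the ubiquitin-like antiviral modifier, and Ifi44 had no such probe set and were not analysed here. The study asked how the microRNA miR-7 acts on gene expression in pancreatic beta cells, the insulin-secreting cells of the islet. MIN6, a mouse beta-cell line, was infected with an adenovirus carrying miR-7a2 (AdmiR7a, 2 arrays), miR-7b (AdmiR7b, 1 array) or green fluorescent protein (AdGFP, 1 array) at a multiplicity of infection of 250. RNA was taken at 48 h, from medium with 4.5 g/l glucose, 2% serum and 5.5 µM 2-mercaptoethanol. All 4 MIN6 arrays therefore carry an adenovirus, AdGFP included, and no array of uninfected cells was analysed here. Pancreatic islets came from mice on a C57BL/6 background with miR-7a2 deleted in beta cells by Cre and loxP (KO, 1 array). WT islets (1 array) came from wild-type animals. The labels give neither the promoter that drives Cre, nor whether the WT mice carry Cre or the floxed allele, nor the age or number of animals behind an array. The AdmiR7a infection was done in duplicate, and nothing says that the cultures were separate, so p-values measure the spread between these arrays only.

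Interferons are secreted when a cell senses foreign nucleic acid. Type I interferon binds a receptor of Ifnar1 and Ifnar2, whose kinases Jak1 and Tyk2 activate a complex that holds Stat2 and Irf9, and the complex binds the interferon-stimulated response element in the promoters of target genes. The products sense viral RNA, block viral replication, attach the modifier Isg15 to proteins, or present viral peptides. In beta cells this programme is known from viral infection and from the inflamed islets of type 1 diabetes.

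Both miR-7 forms share their seed, bases 2 to 8 from the 5′ end, shown in capitals because it is the part that pairs with targets. Counted from 1 at the 5′ end, the miR-7a sequence differs from miR-7b by A10U, and miR-7b is 24 bases long against 23 for miR-7a. The sequences are RefSeq's (GRCm38.p6). The gene deleted in the KO, Mir7-2, holds miR-7a at chr7:78888295-78888317 on the plus strand, and Mir7-1 encodes the same mature sequence at chr13:58392841-58392863 on the minus strand.
mmu-miR-7a-5p: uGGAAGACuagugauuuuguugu
mmu-miR-7b-5p: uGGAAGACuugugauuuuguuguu

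The promoter sequences were searched for the interferon-stimulated response element. RefSeq windows from 250 bases before to 50 after the start site (GRCm38.p6) were found for 26 of the 35 genes, and 10 of them (38.5%) hold the core of the element on either strand, searched as GAAA, any 2 bases, and GAAA again (TTTC, any 2 bases and TTTC on the opposite strand). Among all 27025 genes with such a window, 1079 (3.99%) hold it. The 10 genes are Stat2, Ifih1, Eif2ak2, Oas1a, Rsad2, Ifit1, Ifit3, Bst2, Isg15 and Cxcl10, and 5 of them hold more than 1 match, with matches that overlap in Oas1a, Bst2 and Isg15. The other 16 hold none, among them Irf9, Ifi35, Trim25 and Uba7. A match describes the letters only and is not a measured site, and its absence says nothing of the factor. The 250 bases before the start site follow for a selection of genes, with matches in capitals. Rsad2 stood furthest from AdGFP in MIN6, and Ifit1 was detected in islets only. Cxcl10 (1.32), Oas1a (0.77) and Uba7 (-2.02) differed between the single KO and WT islet arrays (KO minus WT, log2). Xaf1, which differed by 0.81, holds no match and is not shown. Rsad2 (chr12:26456453-26456702, minus strand) has 1 match, at -120 to -111. Cxcl10 (chr5:92348890-92349139, minus strand) has 1, at -213 to -204. Oas1a (chr5:120907526-120907775, minus strand) has 2 that overlap, at -20 to -11 and -14 to -5. Ifit1 (chr19:34640639-34640888, plus strand) has 2, at -104 to -95 and -85 to -76. Uba7 (chr9:107975317-107975566, plus strand) has none.
Rsad2: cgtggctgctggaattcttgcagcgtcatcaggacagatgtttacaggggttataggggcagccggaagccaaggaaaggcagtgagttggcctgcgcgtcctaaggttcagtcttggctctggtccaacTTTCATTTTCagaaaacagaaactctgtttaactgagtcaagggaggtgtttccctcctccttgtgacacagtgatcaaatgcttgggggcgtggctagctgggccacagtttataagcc
Cxcl10: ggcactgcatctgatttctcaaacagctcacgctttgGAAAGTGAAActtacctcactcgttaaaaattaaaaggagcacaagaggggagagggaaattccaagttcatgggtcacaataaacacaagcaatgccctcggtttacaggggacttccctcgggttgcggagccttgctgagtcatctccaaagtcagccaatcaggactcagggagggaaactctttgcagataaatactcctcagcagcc
Oas1a: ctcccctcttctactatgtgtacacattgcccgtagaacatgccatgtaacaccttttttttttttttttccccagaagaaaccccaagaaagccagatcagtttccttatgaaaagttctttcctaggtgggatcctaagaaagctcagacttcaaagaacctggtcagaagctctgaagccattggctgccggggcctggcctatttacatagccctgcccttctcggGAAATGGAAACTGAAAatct
Ifit1: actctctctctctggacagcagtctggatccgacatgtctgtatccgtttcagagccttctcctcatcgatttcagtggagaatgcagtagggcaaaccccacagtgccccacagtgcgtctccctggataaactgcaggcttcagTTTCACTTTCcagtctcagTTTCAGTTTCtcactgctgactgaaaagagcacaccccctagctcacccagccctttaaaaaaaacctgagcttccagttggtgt
Uba7: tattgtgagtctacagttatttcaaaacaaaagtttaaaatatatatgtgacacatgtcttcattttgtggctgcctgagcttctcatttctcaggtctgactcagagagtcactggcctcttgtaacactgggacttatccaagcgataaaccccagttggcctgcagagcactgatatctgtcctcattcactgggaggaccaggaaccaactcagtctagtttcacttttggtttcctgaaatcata

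Values are log2 probe set intensities, so a difference of 1 is a doubling. The lowest value, 2.17, was shared by 28.2% to 29.7% of the probe sets of each array, and a log2 value of 4 served as the level below which a gene was treated as near the background. Across genes measured in MIN6, the AdmiR7a arrays differed from each other by an SD of 0.196 and from AdmiR7b by 0.216 and 0.207. All miR-7 arrays stood further from AdGFP, by 0.513, 0.511 and 0.578, so a feature of that single array enters every MIN6 difference. The KO array differed from the WT array by an SD of 0.394. Beta-cell genes marked both systems: Ins2 and Iapp lay between 15.7 and 16.2 on all 6 arrays. The glucose transporter gene Slc2a2, 14.5 in KO and 14.1 in WT islets, was below 4 on the MIN6 arrays (2.52 on each miR-7 array and 3.84 with AdGFP).

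Of the 33 genes, 13 were at or above 4 on all 6 arrays and 5 were below 4 on all 6. The 5 were Stat2, Dhx58 and Zbp1, which encode a signalling factor and sensors of viral nucleic acid, Oasl1 and the antiviral GTPase gene Mx2. In islets 26 genes reached 4 on both arrays. In MIN6 13 genes reached it on every array, and 18 were below it on all 4. The 11 genes at or above 4 on both islet arrays and below it on all MIN6 arrays made up 33.3% of the set, against 3.59% (654) of all 18194 genes. Irf7, Ifih1, Oasl2, Ifit1, Ifit3, Bst2, Xaf1, Uba7, Parp14, Psmb8 and Psmb9 are these genes.

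**Figure D1:**
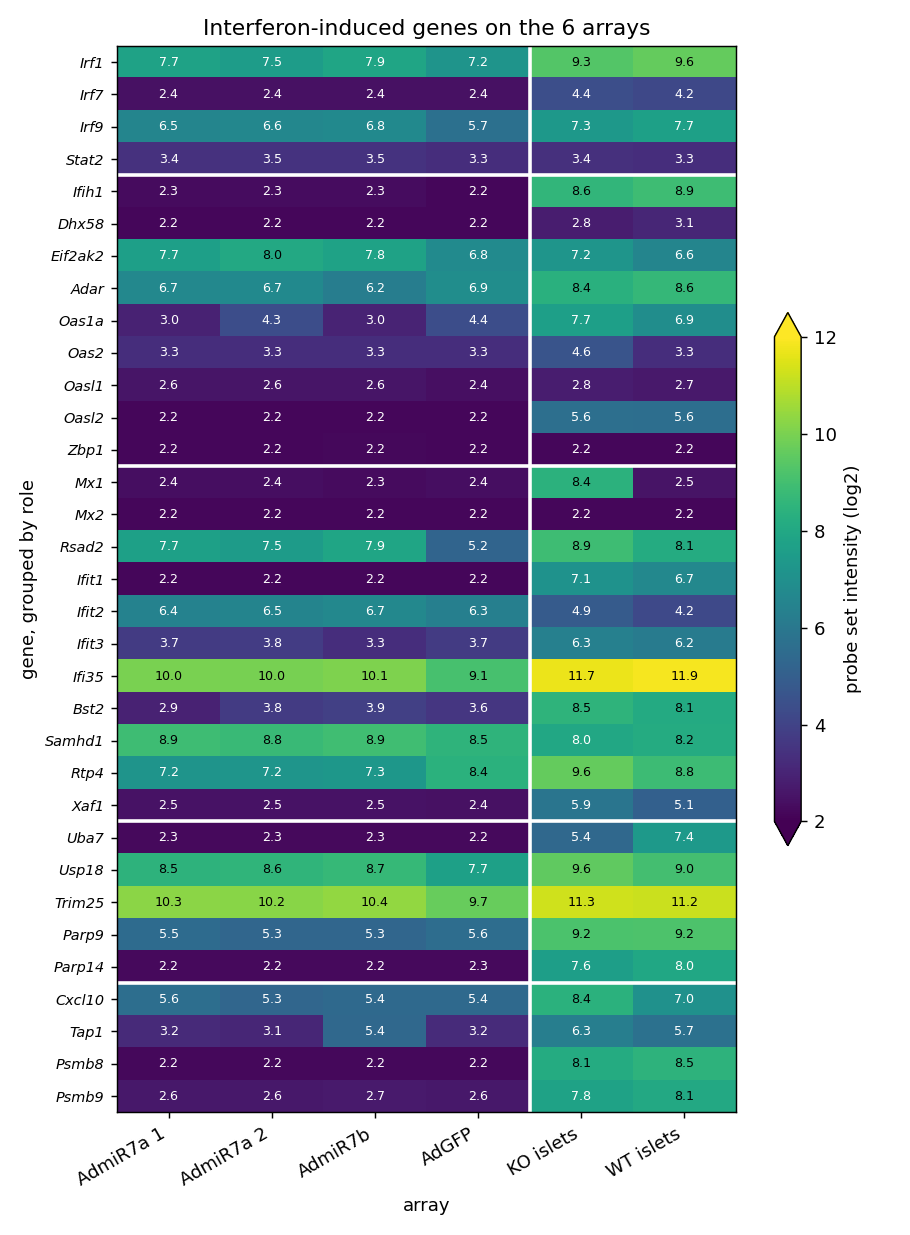
Log2 intensity of the 33 interferon-induced genes (rows, grouped by role) on the 6 arrays (columns), printed in each cell and coloured from 2 to 12. The right-hand pair of columns, the islets, is brighter for most genes, and rows such as Ifit1 and Psmb8 sit at 2.2 on all 4 MIN6 arrays.

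Most interferon-induced genes detected in both systems were higher in islets than in MIN6 cells. Of the 13 genes at or above 4 on all 6 arrays, 9 were higher and 2 lower in islets, against 31.7% higher and 33.3% lower among all 9604 such genes (limma, 2 islet against 4 MIN6 arrays, adjusted p under 0.05). Their median difference was 1.45 (log2), against -0.02 over those genes. This restriction was chosen after seeing the data. With a filter on the mean of the 6 arrays, 17 of 21 genes were higher and 2 lower, against 32.2% and 35.4% of all 10635 genes. Both islet arrays then lay above all 4 MIN6 arrays for 18 genes and below them for 2, against 36.5% and 39.7% of all genes. However, 8 of the 21 were below 4 on some MIN6 array and passed through islets, where they had to be higher, so the wider counts support nothing further. Adjusted p-values for islets against MIN6 below are for genes detected in both systems, from the fit with the filter on the mean. The arrays of each system differ in vector or genotype, which enters the spread, and islets hold other cells besides beta cells. Fewer cells of a type and less RNA per cell cannot be told apart in such bulk samples.

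Genes that passed that filter through islets are described by their levels, with no test. Psmb8 and Psmb9 encode immunoproteasome subunits, which shape peptides for antigen presentation. Psmb8 stood at 8.15 in KO and 8.48 in WT islets, against 2.22, 2.22, 2.22 and 2.22 on the AdmiR7a, AdmiR7b and AdGFP arrays. Psmb9 stood at 7.78 in KO and 8.05 in WT islets, against 2.64, 2.64, 2.72 and 2.64 in MIN6. With MIN6 values set to 4, Psmb8 was at least 19.9-fold and Psmb9 at least 15.1-fold higher in islets. Both were near the background in this beta-cell line, whereas Psmb10, the third such subunit gene, had 7.14 to 8.03 in MIN6 and 9.53 in KO and 9.42 in WT islets. Tap1, the peptide transporter gene whose promoter window overlaps that of Psmb9 by 275 bases on the opposite strand, had 6.28 in KO and 5.73 in WT islets. On the MIN6 arrays Tap1 had 3.18 and 3.09 with AdmiR7a, 5.36 with AdmiR7b and 3.22 with AdGFP. Thus Tap1 reached 4 in MIN6 on the AdmiR7b array alone.

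Sensors and effectors were also among them. Ifih1, the cytoplasmic RNA sensor MDA5, had 8.60 in KO and 8.88 in WT islets and 2.17 to 2.32 in MIN6, at least 26.7-fold higher in islets. Parp14, an ADP-ribosyltransferase gene, was at least 13.8-fold higher and Bst2, which encodes the virion-tethering protein tetherin, at least 19.7-fold. Parp9, detected in both systems, was 13.6-fold higher in islets (log2 3.76 ± 0.11, SE; limma adjusted p = 1.11e-06). The genes that went the other way were Ifit2, which encodes an RNA-binding antiviral protein, 3.87-fold higher in MIN6 (islet minus MIN6 -1.95 ± 0.20, adjusted p = 0.000266), and the dNTP hydrolase gene Samhd1, 1.63-fold higher in MIN6 (-0.70 ± 0.15, adjusted p = 0.00601). With the mean of all its probe sets Samhd1 differed by -0.063 (adjusted p = 0.526). In that setting Trim25 was no longer called, and Eif2ak2 was newly called, lower in islets. The dimmest probe set of Trim25 was lower in islets (6.01 in KO, 6.09 in WT) than in MIN6 (6.49 to 7.25). Without the KO array Samhd1, Irf9, Rtp4 and Usp18 were no longer called, and without an AdmiR7a array Usp18 was not. Without the WT array the calls of Irf9 and Usp18 were lost. Ifit1, a relative of Ifit2, had 7.08 in KO and 6.68 in WT islets and the lowest value of the table, 2.17, on each MIN6 array.

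Markers of several other cell types were also higher in islets, those of myeloid cells among them. Of 14 macrophage and myeloid genes 10 had a mean of at least 4 in islets and 13 were below 4 on all MIN6 arrays. Their summed linear intensity was 5416 in KO and 5235 in WT islets, against 186 to 203 on the miR-7 arrays and 333 on AdGFP. Of 6 genes of class II antigen presentation, all 6 were below 4 in MIN6 (sums of 27.7 to 28.1), against sums of 3313 in KO and 3338 in WT islets. Most of the islet sums came from H2-Aa, at 11.5 in KO and 11.4 in WT islets. Of 10 measured endothelial genes 8 had a mean of at least 4 in islets and 7 were below 4 on all MIN6 arrays. The endothelial sums were 3386 in KO and 3919 in WT islets, against 232 to 372 in MIN6. All 10 measured T, NK and B cell genes were below 4 on every array. An islet mean of at least 4 was reached by 10553 of all 18194 genes, so these counts alone do not mark a cell type. Stellate and fibroblast genes had sums of 38.2 to 38.7 in MIN6, against 730 in KO and 913 in WT islets. However, 6 of these 8 genes were below 4 on both islet arrays. Most of the islet sums came from Pdgfrb, at 9.07 in KO and 9.44 in WT islets. Genes of the alpha, delta and PP cells, hormone cells of the islet, had 7498 to 11351 in MIN6. Their sums were 2.10e+05 in KO and 2.15e+05 in WT islets. The part of all these cells in the islet levels was not tested.

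Several interferon-induced genes were higher in MIN6 cells given a miR-7 vector than in those given AdGFP. With the 3 miR-7 arrays pooled against AdGFP, 6 of the 13 genes tested rose (46.2%) and 1 fell, against 14.0% that rose and 12.1% that fell among all 10367 genes tested (limma, two-sided, Benjamini-Hochberg adjusted p under 0.05). Rsad2, Eif2ak2, Irf9, Ifi35, Usp18 and Trim25 rose, and Rtp4 fell. The median difference of the 13 genes was 0.54 (log2), against 0.06 over all genes. All 13 lay at or above 4 on every MIN6 array, so none passed the filter through its high group. The other 20 did not reach the filter. All 3 miR-7 arrays stood above AdGFP in 9 of the 13 genes and below it in 3, against 46.2% and 33.2% of all genes. AdGFP has a single array, whose spread the fit takes from the miR-7 arrays. With no filter on low values the 6 genes that rose were no longer called, at the same differences (Rsad2 adjusted p = 0.0582, Eif2ak2 adjusted p = 0.140). When any of the 3 miR-7 arrays was left out, limma called 0 genes at all. The median of the 13 was then 0.52 or 0.64 (AdmiR7a replicate 1 or replicate 2 out) or 0.46 (AdmiR7b out). Beside these genes, the complement gene C1qa, the macrophage marker detected in MIN6, had 6.86, 7.08 and 6.86 with miR-7, against 8.05 with AdGFP, and fell by 1.12 (adjusted p = 0.0156). Of 3 endothelial genes tested, 2 rose, Esam by 0.79 and Plvap by 0.85 (adjusted p = 0.0159 and 0.0147). Plvap was below 4 with AdGFP. It passed the filter through the miR-7 arrays, where it had to be higher, so the rise of Plvap supports nothing. Of 6 beta-cell genes 3 fell (list median -0.53): Ucn3 fell by 1.15, Pdx1 fell by 0.99 and Nkx6-1 fell by 0.76 (adjusted p = 0.0115, 0.0139 and 0.0194). The alpha-cell gene Gcg fell by 0.53 (adjusted p = 0.0426). Their part in the result was not tested.

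Rsad2, which encodes viperin, an enzyme that makes a chain-terminating nucleotide, moved furthest. It had 7.70 and 7.49 with AdmiR7a and 7.88 with AdmiR7b, against 5.20 with AdGFP. The 3 miR-7 arrays lay close together and far above AdGFP, a rise of 2.48 ± 0.18 (log2, SE) or 5.60-fold (limma adjusted p = 0.0116). A further probe set of Rsad2 gave 5.70, 5.84 and 5.82 on the miR-7 arrays, against 3.20 with AdGFP. The third gave 4.25, 4.10 and 4.03, against 3.07, so all of them ran the same way, and the AdGFP value of the lower pair was near the background.

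Irf9, the DNA-binding subunit of the interferon-activated complex, had 6.54 and 6.63 with AdmiR7a and 6.75 with AdmiR7b, against 5.71 with AdGFP, and rose by 0.93 ± 0.11 (adjusted p = 0.0176). Irf1, a transcription factor induced by interferon gamma, had 7.75 and 7.51 with AdmiR7a and 7.87 with AdmiR7b, against 7.17 with AdGFP. Its 3 miR-7 arrays were above AdGFP, but the difference of 0.54 ± 0.16 did not pass (adjusted p = 0.0841). Stat2 (3.42, 3.48 and 3.47 with miR-7, 3.31 with AdGFP) and Irf7 (2.44 on each array) were below 4 throughout MIN6.

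Eif2ak2, the kinase PKR that halts translation on sensing double-stranded RNA, had 7.65 and 8.02 with AdmiR7a and 7.78 with AdmiR7b, against 6.77 with AdGFP. It rose by 1.04 ± 0.17 (adjusted p = 0.0253), and its other probe sets gave smaller differences of 0.78 and 0.31. Adar, the RNA-editing enzyme that keeps self RNA from being sensed, had 6.66 and 6.75 with AdmiR7a, 6.25 with AdmiR7b and 6.92 with AdGFP (-0.36 ± 0.23, adjusted p = 0.297). Its probe sets disagreed, with 0.47 at another that lay near 4. Oas1a, an RNA-activated synthetase gene, had 2.95 and 4.35 with AdmiR7a and 3.004 with AdmiR7b, against 4.38 with AdGFP, and the AdmiR7a arrays themselves spanned the level of 4. Oas1a was thus not measured well enough in MIN6 to compare.

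The Isg15 cycle is represented by its removing enzyme and a ligase. Usp18, which strips Isg15 from proteins and also damps the interferon receptor, had 8.45 and 8.56 with AdmiR7a and 8.70 with AdmiR7b, against 7.70 with AdGFP, and rose by 0.87 ± 0.12 (adjusted p = 0.0206). Trim25, a ubiquitin and Isg15 ligase that activates the sensor RIG-I, had 10.3, 10.2 and 10.4 on the same arrays, against 9.69, and rose by 0.61 ± 0.10 (adjusted p = 0.0245). In both genes the miR-7 arrays were above AdGFP without overlap. Uba7, the enzyme that activates Isg15, was at 2.24 to 2.26 on every MIN6 array. Parp9 stood at 5.50, 5.32 and 5.32 with miR-7, against 5.59 with AdGFP (-0.21 ± 0.11, adjusted p = 0.220).

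Among the remaining antiviral genes, Ifi35 had 9.99 and 9.96 with AdmiR7a and 10.1 with AdmiR7b, against 9.11 with AdGFP, and rose by 0.90 ± 0.09 (adjusted p = 0.0133). Its partner gene Nmi rose by 0.92 ± 0.08 (adjusted p = 0.0126). The probe sets used for Ifi35 and Trim25 are of a type that can also detect related transcripts, and their other probe sets differed in the same direction, by 1.25 and 0.66 for Ifi35 and by 0.40 and 0.59 for Trim25. In all, 15 probe sets of the 7 called genes reached 4 on some array, and all ran in the direction of the call. The probe sets that gave the calls are among them and had to do so. Only Rsad2, Eif2ak2, Ifi35 and Trim25 had further ones, and the share over all genes was not taken. Samhd1 had 8.88, 8.77 and 8.94 with miR-7, against 8.50 with AdGFP (0.36 ± 0.10, adjusted p = 0.0662), while dimmer probe sets of it ran the other way (-0.39 and -0.16). Ifit2 (0.22 ± 0.12, adjusted p = 0.225) and the chemokine gene Cxcl10 (0.03 ± 0.15, adjusted p = 0.900) did not pass.

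Rtp4, which encodes an interferon-induced receptor transporter, was the exception in direction. It had 7.17 and 7.23 with AdmiR7a and 7.29 with AdmiR7b, against 8.40 with AdGFP. The 3 miR-7 arrays lay within a narrow range below AdGFP, and Rtp4 fell by 1.17 ± 0.08 (log2; adjusted p = 0.0119), a level 2.25-fold lower with miR-7.

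**Figure D2:**
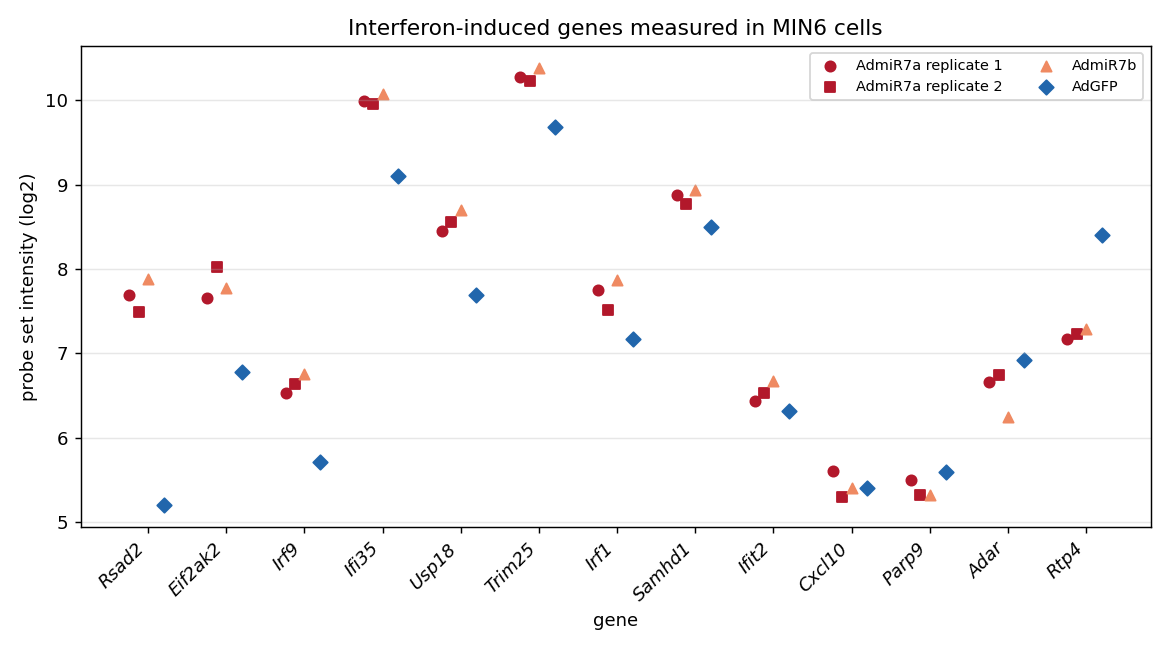
Log2 intensity of the 13 interferon-induced genes measured in MIN6 cells on each AdmiR7a, AdmiR7b and AdGFP array, ordered by the pooled difference. The miR-7 symbols cluster above the AdGFP diamond for Rsad2 through Trim25 and below it for Rtp4.

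**Figure D3:**
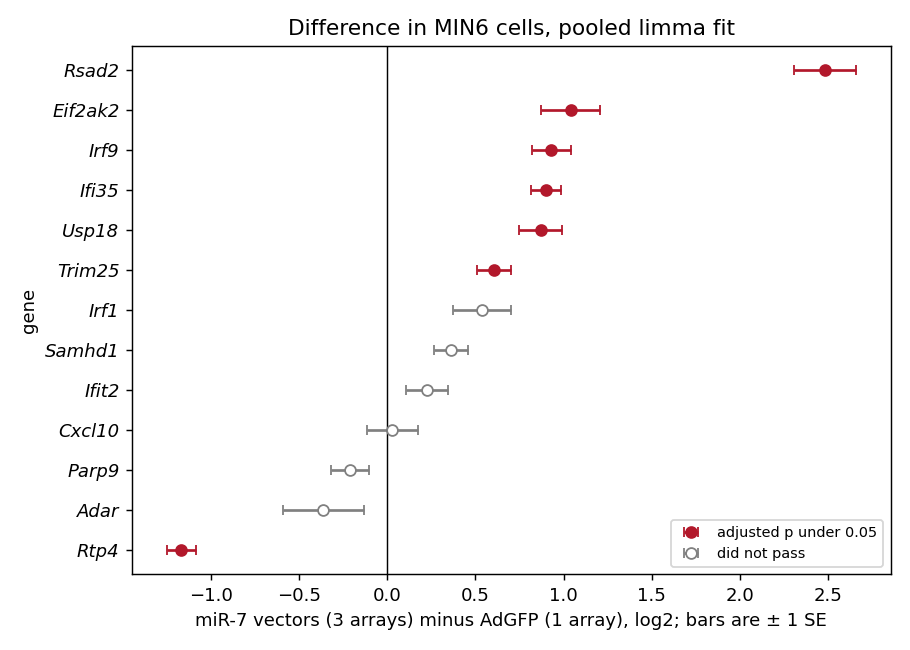
Pooled difference of the 3 miR-7 arrays from the 1 AdGFP array (log2) with bars of ± 1 SE; filled points passed an adjusted p under 0.05. Rsad2 lies at 2.48 and Rtp4 at -1.17, and the 6 open points are those that did not pass.

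The vectors could be set side by side, although both are compared with the same AdGFP array. With AdmiR7b, 3 of the 13 genes exceeded AdGFP by 1 or more (log2) and 1 fell short of it by as much, against 3.82% and 4.36% of all genes. Rsad2 (2.68), Irf9 (1.04) and Eif2ak2 (1.003) were the higher ones and Rtp4 (-1.11) the lower. Eif2ak2 lay at that size and was below it with arrays centred on their medians (0.97). With the mean of all probe sets, Eif2ak2 (0.64) and Rtp4 (-0.56) were below it. With AdmiR7a the differences of these genes were 2.39, 0.88, 1.06 and -1.20. AdmiR7b had 1 array and no replicate check. The AdmiR7a arrays alone gave 0 of 13 genes and 0.00% of all genes in either direction by limma, and its lowest adjusted p was 0.0666. With the filter at 6, centred arrays or repeated quantile normalization the same fit called 6 genes higher and 1 lower, and 1744 to 2261 genes in all. An unadjusted p under 0.05 was reached by 8 of the 13 genes and by 3809 of all. For AdmiR7b minus AdmiR7a limma called 0 genes (0.00%), while 1 of the 13 genes and 597 of all had an unadjusted p under 0.05. These counts of 0 do not show that the vectors act alike.

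Interferons, their receptors and signalling genes were examined next. All 10 interferon genes measured, Ifnb1 and Ifng among them, were below 4 on all 6 arrays, at 2.17 to 2.25. Of 16 receptor and signalling genes tested in MIN6, 3 rose and 3 fell, beside the 14.0% and 12.1% of all genes. Cish (0.67 ± 0.07, adjusted p = 0.0146), Socs3 (0.69 ± 0.11, adjusted p = 0.0250), both feedback inhibitors of Jak kinases, and the interferon gamma receptor gene Ifngr1 (0.51 ± 0.11, adjusted p = 0.0405) rose. Il10rb fell by 0.65, the transcription factor gene Stat3 fell by 0.78 and Pias1, an inhibitor of cytokine signalling, fell by 0.72 (adjusted p = 0.0177, 0.0400 and 0.0245). Ifnar1 stood at -0.02 ± 0.23 and Ifnar2 at 0.01 ± 0.07 (adjusted p = 0.951 each). Among 12 genes of nucleic acid sensing the adaptor gene Myd88 rose by 0.59 (adjusted p = 0.0209) and 0 fell, with a median of 0.12.

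Wider lists of interferon-induced genes were read in the same fit. Of 22 further antiviral genes tested in MIN6, 5 rose and 0 fell (median 0.07), and these and the following counts stand beside 14.0% that rose and 12.1% that fell among all genes. The 5 were Nmi, Znfx1 (0.82), Trim56 (0.68), Rnf213 (0.40) and Mov10 (0.82), the last below a level of 5 and named after its value was seen. Mov10 had 4.27, 4.27 and 4.10 with miR-7, against 3.40 with AdGFP. It passed the filter through the miR-7 arrays, where it had to be higher, so its rise supports nothing. Of 13 genes of antigen processing 3 rose and 2 fell. The immunoproteasome gene Psmb10 rose by 0.79, Tapbpl by 0.62 and the peptidase gene Erap1 by 0.51, while the class I heavy chain genes H2-K1 and H2-D1 fell by 0.36 and fell by 0.37. The class I genes are near-identical copies whose probes can cross-match, so those values are uncertain. Neither of the 2 interferon-induced GTPase genes tested passed. Of 4 NF-kB target genes Nfkbia rose by 0.58. Of 2 chemokine and ligand genes Cxcl12 fell by 1.22, and of 6 genes of Isg15 and ubiquitin-like conjugation the ligase gene Arih1 fell by 0.81. The adjusted p of the genes named here lay between 0.0126 (Nmi) and 0.0458 (Erap1).

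Deleting miR-7a2 in beta cells is the opposite manipulation, in tissue. With 1 array per genotype there is no replicate check, and differences carry no p-value. Of 27 genes with an islet mean of at least 4, 16 were higher and 11 lower in KO, against 45.5% higher and 53.6% lower among all 10553 genes. At a log2 difference of at least 1, 2 genes were higher and 1 lower, against 1.61% and 1.23% of all genes. At 0.58 or more, 8 were higher and 1 lower, against 4.54% and 4.56% of all genes. The median difference of the 27 was 0.18, and 0.13 without Mx1, against -0.02 over all genes. It was 0.0093 with a filter at 6 and 0.036 with the mean of all probe sets, near the value over all genes. Mx1 is the only gene that passed the filter through a single array, the KO array, where it had to be higher. It is among the 16, the 2 and the 8 genes counted as higher, and its place in those counts supports nothing. Without Mx1, 15 of 26 genes were higher at any size.

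Mx1, an antiviral GTPase gene, stood at 8.42 in KO and 2.54 in WT islets, at least 21.4-fold higher in KO with the WT value set to 4. It was far above the background in KO islets and near it in WT islets, and on the MIN6 arrays it lay between 2.28 and 2.38. Its islet difference of 5.89 was the largest among all 10553 genes. Mx1 and its neighbour Mx2 are annotated as transcribed pseudogenes in the C57BL/6J reference (GRCm38.p6), since most laboratory strains carry inactivating mutations in them. Mx2 was at 2.17 on all 6 arrays. Mx1 rests on a single probe set, and whether the KO and WT mice carry the same Mx1 allele was not tested.

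Cxcl10, a chemokine gene that draws T cells, followed with 8.37 in KO and 7.04 in WT islets, 2.50-fold higher in KO. Smaller differences of the same direction were seen for Xaf1 (5.87 in KO, 5.06 in WT), Oas1a (7.66 in KO, 6.88 in WT), Rtp4 (9.62 in KO, 8.85 in WT) and Rsad2 (8.89 in KO, 8.13 in WT). Ifit2 (4.86 in KO, 4.21 in WT), Eif2ak2 (7.21 in KO, 6.57 in WT) and Usp18 (9.57 in KO, 9.02 in WT) were also higher in KO. These genes, antiviral effectors and sensors and the Isg15-removing enzyme gene Usp18, were from 1.47-fold (Usp18) to 1.75-fold (Xaf1) higher. The dimmest probe set of Rsad2 ran the other way (4.10 in KO, 4.65 in WT), whereas both other probe sets of Eif2ak2 were higher in KO, by 1.45 and 0.46. Oas2 reached 4 in KO only (4.61, against 3.30 in WT), below the filter.

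Uba7, the enzyme that starts Isg15 conjugation, was the gene furthest in the other direction. It stood at 5.37 in KO and 7.39 in WT islets, 4.06-fold lower in KO. A further probe set had 4.60 in KO and 5.39 in WT, and the last, below 4 on both arrays, had 2.19 in KO and 2.68 in WT. Uba7 and Usp18, which add and remove the same modifier, thus stood on opposite sides. The transcription factor genes Irf1 (9.34 in KO, 9.64 in WT) and Irf9 (7.34 in KO, 7.68 in WT) and the immunoproteasome genes Psmb8 (-0.33) and Psmb9 (-0.27) were slightly lower in KO. Ifih1 (-0.28), Adar (-0.29) and Parp14 (-0.35) were lower by similar amounts. All of these are smaller than the SD of 0.394 between the arrays across genes. The other probe sets of Adar disagreed in islets, with 5.89 in KO and 5.73 in WT at one and 4.14 in KO and 4.31 in WT at the other.

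By role, 8 of 10 antiviral effector genes were higher in KO (median 0.53), or 7 of 9 without Mx1 (median 0.41), beside 45.5% of all genes. Of 5 sensor genes 3 were higher (median 0.02), of 5 genes of Isg15 conjugation and ADP-ribosylation 2 (median -0.06), of 4 genes of antigen processing and chemokines 2 (median 0.14) and of 3 transcription factor genes 1 (median -0.30).

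Further lists of the pathway were read in islets in the same way. The counts below stand beside 45.5% of all genes that were higher in KO at any size. At a log2 difference of at least 1, 1.61% of all genes were higher and 1.23% lower. With so few genes in most lists, the counts are not read as results about the lists. Of 27 other antiviral genes 9 were higher in KO (median -0.06) and 0 were past a log2 difference of 1 in either direction. Of 7 interferon-induced GTPase genes 5 were higher (median 0.32), and of 15 antigen processing genes 9 (median 0.11). Among receptor and signalling genes, the interferon gamma receptor gene Ifngr2 was higher in KO (6.42 in KO, 5.31 in WT) and Socs3 lower (9.77 in KO, 10.8 in WT). Among NF-kB targets the cytokine gene Il1b (6.02 in KO, 4.14 in WT) and the adhesion gene Vcam1 (7.82 in KO, 6.75 in WT) were higher, and Il6 (4.24 in KO, 5.81 in WT) was lower. Il15ra, the interleukin 15 receptor gene, was lower in KO (5.58 in KO, 6.68 in WT). Beside these, the macrophage genes had a median difference of 0.13 and the endothelial genes of -0.22. Of single markers, Itgax stood at 3.21 in KO and 5.07 in WT islets and Pecam1 at 5.19 in KO and 6.30 in WT. They were the only genes past 1 in the class II list (median -0.25) and the endothelial list. The other genes of these lists differed less, and 1 of 5 class II and 3 of 8 endothelial genes were higher in KO. The part of these cells in the interferon-induced genes was not tested.

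**Figure D4:**
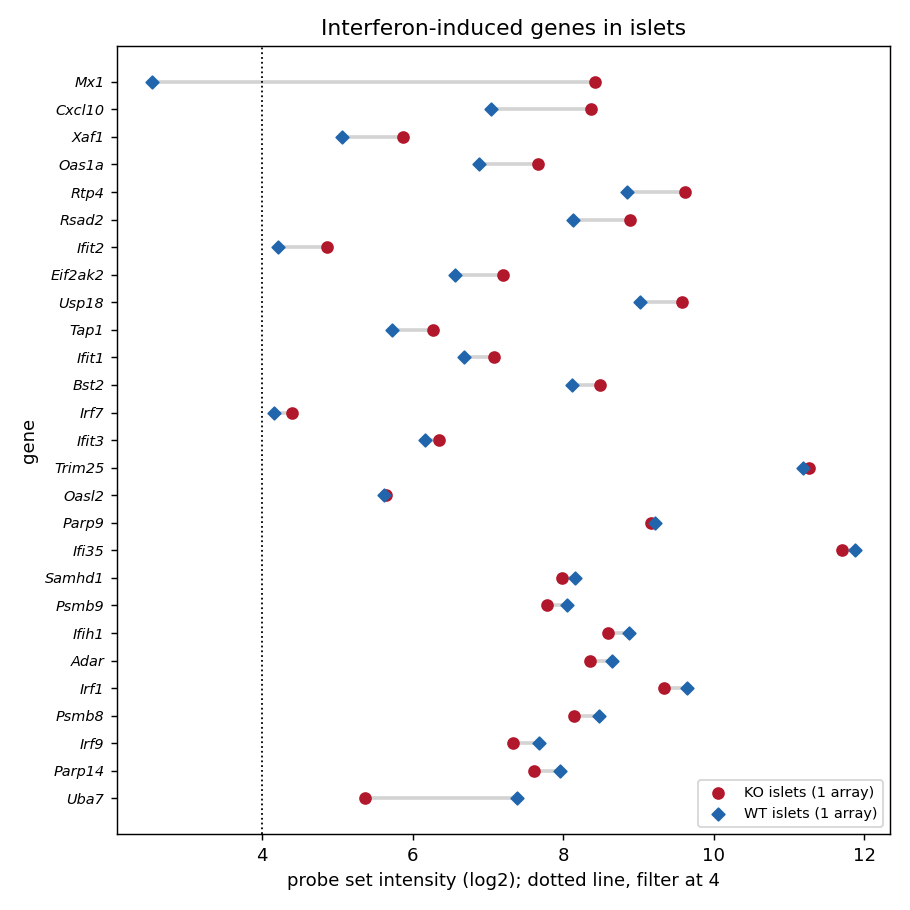
Log2 intensity of 27 interferon-induced genes in KO islets (circles) and WT islets (diamonds), 1 array each, ordered by the difference; the dotted line marks the filter at 4. Mx1 lies at 8.42 in KO and 2.54 in WT, Uba7 is the gene with the KO circle furthest left of WT, and most other pairs lie close together.

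The manipulations were set beside each other for the 13 genes measured in both systems. Of the 6 that rose with miR-7 in MIN6, 4 were also higher in KO islets: Rsad2 (0.76), Eif2ak2 (0.64), Usp18 (0.56) and, by only 0.08, Trim25. The other 2, Irf9 (-0.34) and Ifi35 (-0.17), were lower. Among all 10553 genes 45.5% were higher in KO. The share among all genes that rose in MIN6 was not taken, so these counts are not read as a shared response. Rtp4 fell with miR-7 and was 0.77 higher in KO. Cxcl10 was 1.32 higher in KO and 0.03 higher with miR-7. The difference between the systems in these responses was not tested, since the islets have no replicate.

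**Figure D5:**
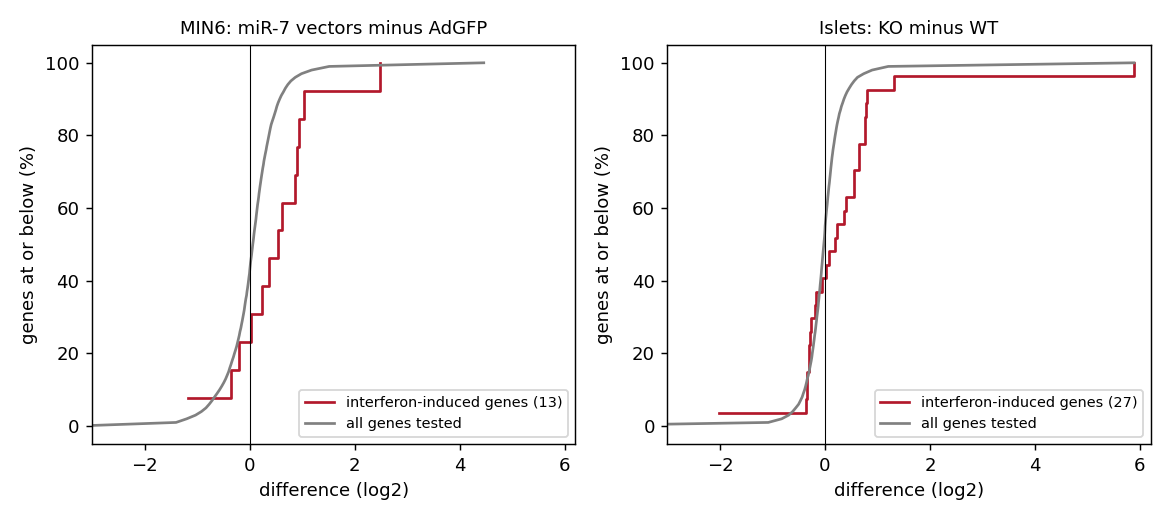
Cumulative share (%) of interferon-induced genes (red) and of all genes tested (grey) at or below each log2 difference, for the miR-7 vectors minus AdGFP in MIN6 (left, 13 genes) and KO minus WT in islets (right, 27 genes). The red line lies right of the grey one over most of the left panel, with a median of 0.54, and over the upper part of the right panel, with a median of 0.18.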

How the data were processed

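The deposited log2 intensities of 45101 probe sets on 6 arrays were made by the authors with GCRMA, which corrects background from probe sequence, quantile-normalizes and summarises probe sets; per the submitters' processing notes GCRMA and the affy package were used, versions not given. Probe sets with 1 symbol (34958) were named from the platform annotation and updated through RefSeq (GRCm38.p6; 34754 identifiers found); 932 carried several symbols and 9211 none. The members and lists were chosen with earlier results of these data known.

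Genes with a mean below 4 over the arrays compared were left out. Differences were tested with limma 3.58.1 (R 4.3.3), lmFit and eBayes, tested on simulated data. KO against WT and AdmiR7b against AdGFP have no replicate and are counted at a log2 difference of at least 1. The number of arrays limits the precision. All 35 genes are accounted for; of each other list, genes past the pooled test or past a size of 1 in islets are named, up to 6 with the higher group at 5 or more. Alternatives were the filter, probe set choice, normalization, a floor at 4, a variance trend, single arrays left out and a size of 0.58.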

Additional observations from a re-analysis of the deposited data

How the results depend on the processing

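No paired analysis was possible because replicate numbers exist for AdmiR7a alone. In the pooled MIN6 comparison 6 genes rose, 1 fell and 2713 were called of all, with a median of 0.54. The filter at 6, both probe set choices, both normalizations, the floor and the variance trend kept the same 7 genes (the filter at 6 added Irf1 and Samhd1, quantile normalization Irf1), while leaving out any of the 3 miR-7 arrays gave counts from 0 to 0 for genes higher, genes lower and all genes (lowest adjusted p 0.0650 to 0.0784). Without a filter, Rtp4 alone of the 7 was still called, 1 rose (Oasl1, below 4 on all 6 arrays and not among the 6), 943 of all genes were called and the median was 0.021 over 33 genes, 20 of them near the background. For AdmiR7a against AdGFP, where 0 genes were called, no filter gave 1 higher and 323 of all with a median of 0.012. The filter at 6 gave 6 higher, 1 lower and 1744 of all, averaged probe sets 5, 1 and 967, centred arrays 6, 1 and 2254, and repeated quantile normalization 6, 1 and 2261; the cause was not tested. For AdmiR7b against AdGFP, no filter gave 2 lower and a median of 0.030, averaged probe sets 0 lower, and a size of 0.58 gave 7 higher and 2 lower. For KO against WT islets, the filter at 6 left 1 higher (it drops Mx1) with a median of 0.0093. Averaged probe sets gave a median of 0.036, and a size of 0.58 gave 8 higher, Mx1 among them. For islets against MIN6, the filter at 6 gave 9 higher, 1 lower and a median of 1.58 over 12 genes, averaged probe sets a median of 1.60, genes at or above 4 on all 6 arrays (chosen after seeing the data) 9 higher and a median of 1.45, and leaving out single arrays 13 to 18 higher and 1 to 3 lower; without the KO array 1 was lower and 13 higher. With AdmiR7a alone against AdGFP, dropping either AdmiR7a array leaves no residual degrees of freedom, so the medians of 0.34 and 0.57 carry no test. Signal near the background limits 20 genes in MIN6 and 6 in islets.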
